A study of Homo sapiens with 4 samples.

Results

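The N-myc downstream regulated gene (NDRG) family and the yippee-like (YPEL) family were followed across 4 RNA-Seq libraries of FaDu cells. The members were the rows of the deposited expression table that carried the symbols NDRG1 to NDRG4 and YPEL1 to YPEL5 and lay on an assembled chromosome. There were 9 such genes among 62077 rows, 4 of the NDRG family and 5 of the YPEL family. The families were chosen by the FPKM of NDRG1 and YPEL3 in hypoxia against normoxia, which were among the largest hypoxia responses in these same libraries. The responses to hypoxia given here are therefore a description of the choice, with no test. FaDu is an established line of squamous carcinoma cells from the hypopharynx. Its cells carried a scrambled control (scr) or a TET1 knockdown (TET1-si), both delivered as lentiviral hairpin constructs according to the study's methods. TET1 is the dioxygenase that converts 5-methylcytosine in DNA to 5-hydroxymethylcytosine. Hypoxic cultures spent 19 h at 1% oxygen, with nitrogen at 94% and carbon dioxide at 5%, while normoxic cultures were kept in air with 5% carbon dioxide. The 4 groups were N-scr (normoxia, scrambled), N-si (normoxia, TET1-si), H-scr (hypoxia, scrambled) and H-si (hypoxia, TET1-si), with 1 library each. The comparisons asked how each member responded to hypoxia and what the response was when TET1 was knocked down.

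NDRG proteins have the fold of alpha/beta hydrolases but lack the catalytic residues of those enzymes. NDRG1 is a cytoplasmic protein induced by hypoxia and other stresses, a substrate of the kinases SGK1 and GSK3B, and one of the genes that N-myc and c-Myc repress. YPEL proteins are small, zinc-binding and strongly conserved from yeasts to humans. YPEL3 has been described as a p53 target that slows growth, and YPEL5 as a subunit of the CTLH ubiquitin ligase complex.

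Values are FPKM, which are fragment numbers divided by exon length and by sequencing depth, so that genes can be set side by side. Where 4 values are given in a row, they stand for N-scr, then N-si, then H-scr, then H-si. Changes are differences of log2(FPKM + 0.1), a scale that understates the change of low genes. A gene is called changed at a difference of 1 or more, which is 2-fold, if its mean over the 4 libraries was at least 1 FPKM. That minimum was met by 15057 genes and by 7 of the 9 members, with YPEL1 and YPEL4 below it. Folds, and the log2 values that stand before an interval, are plain ratios of FPKM with no pseudocount, and the intervals are 95% counting intervals of those ratios from approximate reads. All other log2 values, the 2-fold calls and the ranks are on the log2(FPKM + 0.1) scale. The intervals cover counting error only and do not cover the spread between cultures, for which no replicate existed. Recovered depths ran from 22600000 to 24700000 reads. The labels describe single-end and the methods paired-end sequencing, so a read here may be a fragment of paired reads. TET1 itself was 2.63-fold lower in N-si than in N-scr and 2.71-fold lower in H-si than in H-scr, on approximately 11 to 77 reads a library. All 8 squamous epithelial markers were above 1 FPKM, with summed levels of 6050 FPKM in N-scr against 1993 in N-si, and 7525 in H-scr against 2979 in H-si. The lower sums in TET1-si cells came mostly from KRT5, KRT8 and KRT18, the 3 keratins of the list, which were at least 2-fold lower in both oxygen states. Of the 8 markers, 4 were above 0 after TET1-si under hypoxia (median 0.10) and 3 under normoxia (median -0.27), CDH1, EPCAM and JUP in both. Of 6 fibroblast markers only COL1A1 was above 1 FPKM, and COL1A2 and LUM were listed at 0 in every library. The sum of the fibroblast list was 5.30, 14.1, 28.7 and 37.2 FPKM. Nearly all of it was COL1A1, at 5.29, 13.96, 28.58 and 36.99 FPKM, in the order of libraries that most members showed. No other gene of the list had that order. COL3A1 was at 0.010, 0.084, 0 and 0.241 FPKM, and DCN was above 0 only in H-scr, at 0.081 FPKM. The endothelial list, with CDH5 and VWF above 1 FPKM, summed to 8.93, 22.2, 17.8 and 48.4 FPKM. The leukocyte list, with only CD14 above 1 FPKM and CD3E at 0 in every library, summed to between 1.51 and 3.53 FPKM. CD14 alone was listed at 1.44, 3.43, 1.76 and 3.46 FPKM. The part of other cell types in the members' values was not tested. In RNA from whole cultures, fewer cells of a type and less RNA per cell cannot be told apart.

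In scrambled cells 6 members were at least 2-fold higher in hypoxia, beside 12.9% of all genes, and none was at least 2-fold lower, beside 4.53%. These were NDRG1, NDRG2, NDRG4, YPEL2, YPEL3 and YPEL5, while 17.4% of all genes were changed in either direction. In TET1-si cells 5 members were at least 2-fold higher in hypoxia, beside 12.5% of all genes, and none was lower, beside 8.66%. NDRG2, at 0.56, was the member below 2-fold here, and 21.2% of all genes were changed either way. These 5 members passed in both knockdown states, as did 6.73% of all genes. Since NDRG1 and YPEL3 were chosen for these contrasts, nothing is read from the counts. Over the 9 members the median hypoxia response on the log2(FPKM + 0.1) scale was 1.61 with the scrambled control and 1.07 with TET1-si, beside 0.05 and 0.03 over all genes.

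**Figure D1:**
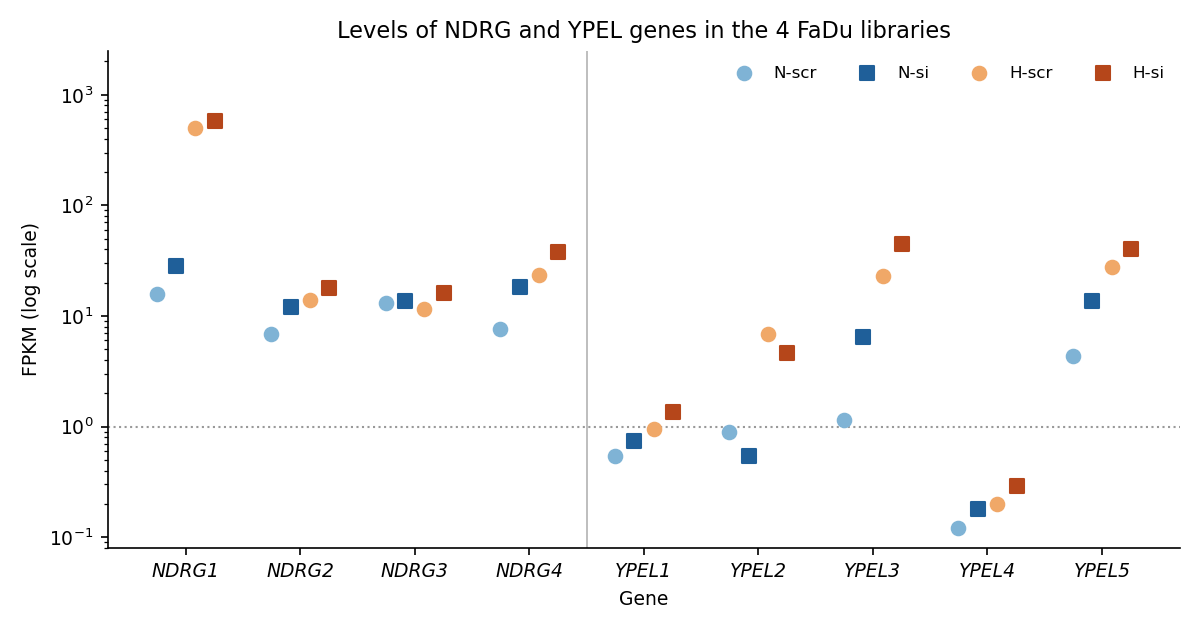
FPKM (log axis) of the 9 NDRG and YPEL members, with 1 point for each of the 4 libraries. NDRG1 in both hypoxic libraries sits far above every other value, at 497 and 579 FPKM, and YPEL1 and YPEL4 are the lowest members in both hypoxic libraries.

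NDRG1 (ENSG00000104419, hg19 chromosome 8, 134249414 to 134314265, minus strand) was the most abundant member in every library. Its level was 15.9 FPKM in N-scr against 28.0 in N-si, and 497 in H-scr against 579 in H-si. Both hypoxic libraries were far above both normoxic ones, and within each oxygen state the TET1-si library was the higher. The hypoxia response was 31.2-fold in scrambled cells (log2 4.96, interval 4.87 to 5.06) and 20.6-fold in TET1-si cells (log2 4.37, interval 4.30 to 4.43). Among 11907 protein-coding genes these were the 5th and the 8th largest hypoxia responses. In order of level among 19234 protein-coding genes, NDRG1 stood at place 6016 in N-scr against 4506 in N-si, and 186 in H-scr against 135 in H-si. The TET1-si response was 1.76-fold under normoxia (log2 0.82, interval 0.71 to 0.93) and 1.16-fold under hypoxia (log2 0.22, interval 0.20 to 0.24), so neither reached 2-fold.

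NDRG4 (ENSG00000103034, hg19 chromosome 16, 58496750 to 58547532, plus strand), a member known for its expression in brain and heart, was the next most responsive of its family. It measured 7.63 FPKM in N-scr against 18.1 in N-si, and 23.5 in H-scr against 38.2 in H-si. The normoxic TET1-si library was nearer to the hypoxic scrambled library than to the normoxic scrambled one. Hypoxia was accompanied by a 3.08-fold higher level in scrambled cells (log2 1.62, interval 1.48 to 1.77) and a 2.11-fold higher level in TET1-si cells (log2 1.08, interval 0.98 to 1.17). The TET1-si response was 2.37-fold under normoxia (log2 1.25, interval 1.10 to 1.40) and 1.63-fold under hypoxia (log2 0.70, interval 0.61 to 0.79).

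NDRG2 (ENSG00000165795, hg19 chromosome 14, 21484922 to 21539031, minus strand), a member best known from astrocytes and as a candidate tumour suppressor, stood at 6.80 FPKM in N-scr against 12.1 in N-si, and 13.8 in H-scr against 17.9 in H-si. N-scr was the low library and the other 3 lay close together. Its hypoxia response in scrambled cells was 2.03-fold (log2 1.02, interval 0.86 to 1.19), just past the 2-fold line, and a pseudocount of 1 put it at 0.93 and median-of-ratios scaling, which sets the middle gene-wise ratio between libraries to no change, put it at 0.96. In TET1-si cells the log2 response was 0.56 (interval 0.43 to 0.70). The TET1-si response was 0.83 under normoxia (interval 0.67 to 1.01) and 0.38 under hypoxia (interval 0.25 to 0.50). The locus listed for NDRG2 contains RNASE7, an antimicrobial ribonuclease gene, which was listed at 1.08, 2.73, 7.09 and 14.8 FPKM.

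NDRG3 (ENSG00000101079, hg19 chromosome 20, 35280169 to 35374481, minus strand), whose protein is a target of the oxygen-sensing prolyl hydroxylase EGLN1, was the member whose hypoxia responses had opposite signs. It measured 13.0 FPKM in N-scr against 13.7 in N-si, and 11.5 in H-scr against 16.1 in H-si. H-scr was the lowest library and H-si the highest, and all 4 lay within a narrow range. The log2 hypoxia response was -0.17 in scrambled cells (interval -0.31 to -0.03) and 0.24 in TET1-si cells (interval 0.11 to 0.37). Lower in hypoxia in scrambled cells and higher in TET1-si cells was the pattern of 10.3% of all genes. The TET1-si response was 0.48 under hypoxia (interval 0.35 to 0.62). Under normoxia it was 0.08 (interval -0.06 to 0.21), which was not detectable at this depth and became -0.09 with median-of-ratios and -0.04 with upper-quartile scaling.

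**Figure D2:**
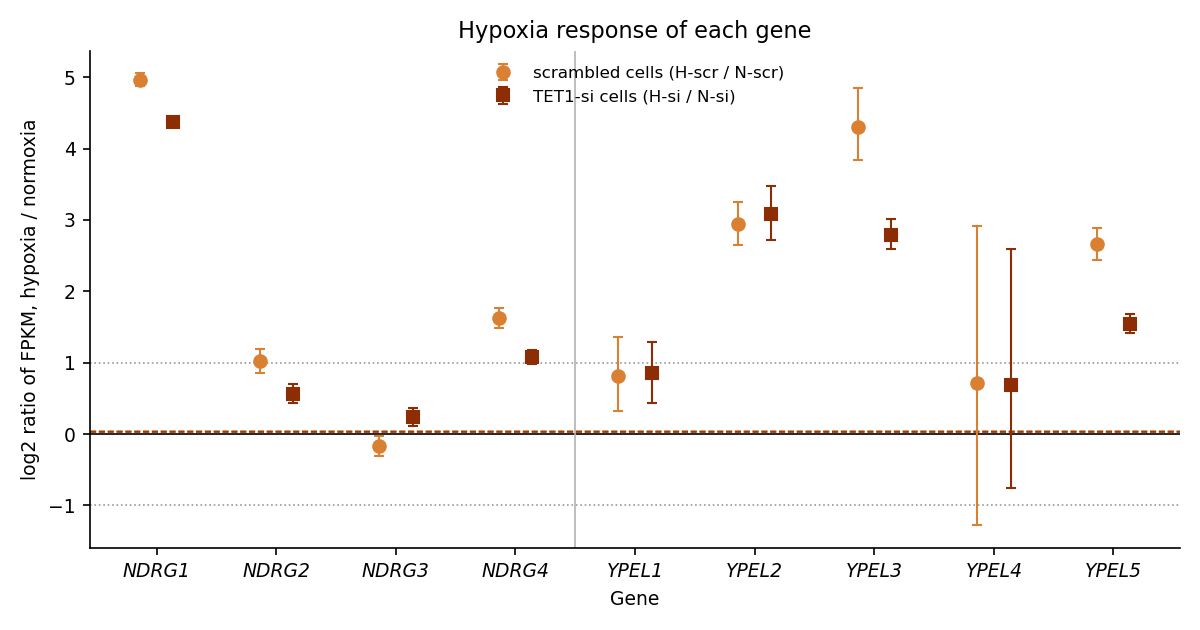
Hypoxia response of each member as the plain log2 ratio of hypoxic to normoxic FPKM, in scrambled and in TET1-si cells, with 95% counting intervals. Dotted lines mark 2-fold and dashed lines the median of all genes, and the TET1-si point lies clearly below the scrambled point for NDRG1, NDRG2, NDRG4, YPEL3 and YPEL5 and above it for NDRG3.

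Among the YPEL genes, YPEL3 (ENSG00000090238, hg19 chromosome 16, 30103635 to 30108236, minus strand) had the largest hypoxia response. Its level was 1.15 FPKM in N-scr against 6.41 in N-si, and 22.7 in H-scr against 44.5 in H-si. The 4 libraries were well separated, on approximately 36, 218, 779 and 1396 reads. The response to hypoxia was 19.8-fold in scrambled cells (log2 4.31, interval 3.84 to 4.85) and 6.95-fold in TET1-si cells (log2 2.80, interval 2.59 to 3.01). These were the 15th and the 59th largest among protein-coding genes. YPEL3 also had the largest TET1-si response of the 9 members in both oxygen states. It was 5.59-fold under normoxia (log2 2.48, interval 1.99 to 3.05), in place 146 among protein-coding genes, and 1.96-fold under hypoxia (log2 0.97, interval 0.84 to 1.10). These responses share N-scr or H-scr with the hypoxia response that chose YPEL3, so their size and place are descriptions only. With a pseudocount of 1 the response under normoxia was 1.79, and with every library rescaled to a common sum (TPM) the response under hypoxia was 1.03, past the 2-fold line. A noncoding transcript on the opposite strand, YPEL3-DT, shares 300 bp of exon with YPEL3 and was listed at 0.030, 0.595, 0.509 and 1.58 FPKM.

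YPEL5 (ENSG00000119801, hg19 chromosome 2, 30369807 to 30383399, plus strand) was above YPEL3 in every library but H-si. It measured 4.35 FPKM in N-scr against 13.7 in N-si, and 27.5 in H-scr against 40.0 in H-si, on approximately 191 to 1736 reads. The order of the libraries was that of YPEL3, over a smaller range. Hypoxia gave a 6.33-fold response in scrambled cells (log2 2.66, interval 2.45 to 2.89) and a 2.92-fold response in TET1-si cells (log2 1.55, interval 1.42 to 1.68). The TET1-si response was 3.14-fold under normoxia (log2 1.65, interval 1.42 to 1.90) and 1.45-fold under hypoxia (log2 0.54, interval 0.43 to 0.64).

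YPEL2 (ENSG00000175155, hg19 chromosome 17, 57409050 to 57479090, plus strand) was the member with lower levels after TET1-si in both oxygen states. Its level was 0.897 FPKM in N-scr against 0.545 in N-si, and 6.89 in H-scr against 4.60 in H-si. Both hypoxic libraries were above both normoxic ones, and within each oxygen state the scrambled library was the higher. The hypoxia responses were 7.68-fold in scrambled cells (log2 2.94, interval 2.64 to 3.25) and 8.45-fold in TET1-si cells (log2 3.08, interval 2.72 to 3.48), and their intervals overlapped. The TET1-si response was -0.58 under hypoxia (interval -0.74 to -0.43) and -0.72 under normoxia (interval -1.20 to -0.28). A pseudocount of 1 reduced the hypoxia responses to 2.06 and 1.86. A noncoding gene on the opposite strand (ENSG00000266002) shares 144 bp of exon with YPEL2 and was listed at 0 in both normoxic libraries, at 19.1 FPKM in H-scr and at 12.8 FPKM in H-si.

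YPEL1 (ENSG00000100027, hg19 chromosome 22, 22051833 to 22090123, minus strand) and YPEL4 (ENSG00000166793, hg19 chromosome 11, 57412560 to 57417417, minus strand) were scarce. YPEL1 was listed at 0.539 FPKM in N-scr against 0.741 in N-si, and 0.948 in H-scr against 1.35 in H-si, on approximately 50 to 124 reads. Its libraries stood in the same order as those of NDRG1, but N-si could not be told from N-scr, nor H-scr from N-si, at this depth. Of its 4681 bp of merged exons, 2480 bp are shared with PPIL2 on the opposite strand, which measured 17.4 to 27.6 FPKM, and strand was not stated to have been kept. YPEL4 was listed at 0.122, 0.179, 0.200 and 0.290 FPKM on approximately 4 to 10 reads, and no difference between its libraries was detectable. Its exons overlap those of CLP1, at 9.25 to 13.9 FPKM, on the opposite strand.

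The promoters of the 3 YPEL genes called in hypoxia are shown because the letters ACGTG and GCGTG are the core of the hypoxia response element, the site that hypoxia-inducible factors bind. The windows are the 250 bases before the RefSeq start site, read 5′ to 3′ on the gene's strand (RefSeq, GRCh38.p14), and either core on either strand is in capitals. Those of YPEL2 (chr17:59331405-59331654, plus strand), YPEL3 (chr16:30096214-30096463, minus strand) and YPEL5 (chr2:30146757-30147006, plus strand) read as follows.
YPEL2: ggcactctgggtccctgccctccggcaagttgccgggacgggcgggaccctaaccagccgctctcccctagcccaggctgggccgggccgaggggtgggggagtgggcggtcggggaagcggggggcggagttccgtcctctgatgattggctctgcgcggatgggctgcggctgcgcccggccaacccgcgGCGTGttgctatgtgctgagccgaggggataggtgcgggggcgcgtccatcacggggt
YPEL3: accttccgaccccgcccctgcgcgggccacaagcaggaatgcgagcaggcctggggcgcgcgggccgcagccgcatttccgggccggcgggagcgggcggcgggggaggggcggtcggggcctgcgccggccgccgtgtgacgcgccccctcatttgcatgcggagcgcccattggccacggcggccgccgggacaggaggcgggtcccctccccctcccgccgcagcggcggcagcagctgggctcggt
YPEL5: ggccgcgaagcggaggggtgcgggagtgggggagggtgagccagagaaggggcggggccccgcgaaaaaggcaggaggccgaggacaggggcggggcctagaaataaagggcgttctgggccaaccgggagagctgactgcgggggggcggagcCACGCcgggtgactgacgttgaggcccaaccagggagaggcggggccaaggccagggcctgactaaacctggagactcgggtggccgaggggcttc
YPEL2 held 1 GCGTG, starting 58 bases before the start site. YPEL5 held 1 CACGC, which is GCGTG on the other strand, starting 96 bases before it. The YPEL3 window held neither core. Of 35116 windows of the same length, 18.5% held ACGTG, 32.2% held GCGTG and 43.2% held either. Of the other members, NDRG4 had 4 windows, of which 1 held 4 copies of GCGTG, and the YPEL4 window held 1 ACGTG. NDRG2 had 5 windows, of which 3 held 1 copy of GCGTG each. Among these 3, the windows chr14:21025062-21025311 and chr14:21025106-21025355 overlap, so 1 site may stand in both. RefSeq windows were matched for 6 of the 9 members, with none for NDRG1, NDRG3 or YPEL1. A match in these letters is not a bound site.

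From lowest to highest, the levels ran N-scr, N-si, H-scr, H-si for 7 of the 9 members, with NDRG3 and YPEL2 the exceptions. That order held for 11.3% of all genes and for 51.1% of the 1013 genes that passed 2-fold in hypoxia in both states. Of the members, only NDRG1, NDRG4, YPEL2, YPEL3 and YPEL5 are among the 1013, here and below. YPEL1 and YPEL4 lie below the minimum and are not among all genes counted. Of 27 pairs of neighbouring levels, 3 for each member, 21 differed beyond their counting interval. The 6 that did not were the 3 pairs of YPEL4, 2 pairs of YPEL1, and N-scr with N-si for NDRG3. Each member's order was taken from these same levels, so the count of 21 is a description with no test. The smallest log2 ratios among the 21 were those of NDRG3 between N-scr and H-scr, at 0.17 (interval 0.03 to 0.31), and of NDRG2 between H-scr and N-si, at 0.19 (interval 0.05 to 0.32).

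After TET1 knockdown under normoxia 3 members were at least 2-fold higher, beside 12.1% of all genes, and none was at least 2-fold lower, beside 5.56%. The 3 were YPEL3, YPEL5 and NDRG4, and 17.7% of all genes were changed in either direction. Under hypoxia no member was at least 2-fold higher or lower, beside 12.0% and 8.35% of all genes, or 20.4% either way. The contrast under normoxia shares N-scr, and that under hypoxia H-scr, with the hypoxia response that chose the families. A low N-scr value in a member so chosen raises the first contrast, and a high H-scr value lowers the second. The difference was above 0 in both oxygen states for 8 of 9 members, all but YPEL2, beside 46.2% of all genes and 64.5% of the 1013 genes higher in hypoxia in both states. Of the 8, only NDRG1, NDRG4, YPEL3 and YPEL5 are among the 1013. NDRG3, YPEL1 and YPEL4 are among the 8 with intervals under normoxia that included 0. The median TET1-si response of the 9 members was 0.81 under normoxia and 0.47 under hypoxia, and that of all genes 0.15 and 0.10. Less those medians, NDRG1 was 0.66 higher under normoxia and 0.12 higher under hypoxia.

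**Figure D3:**
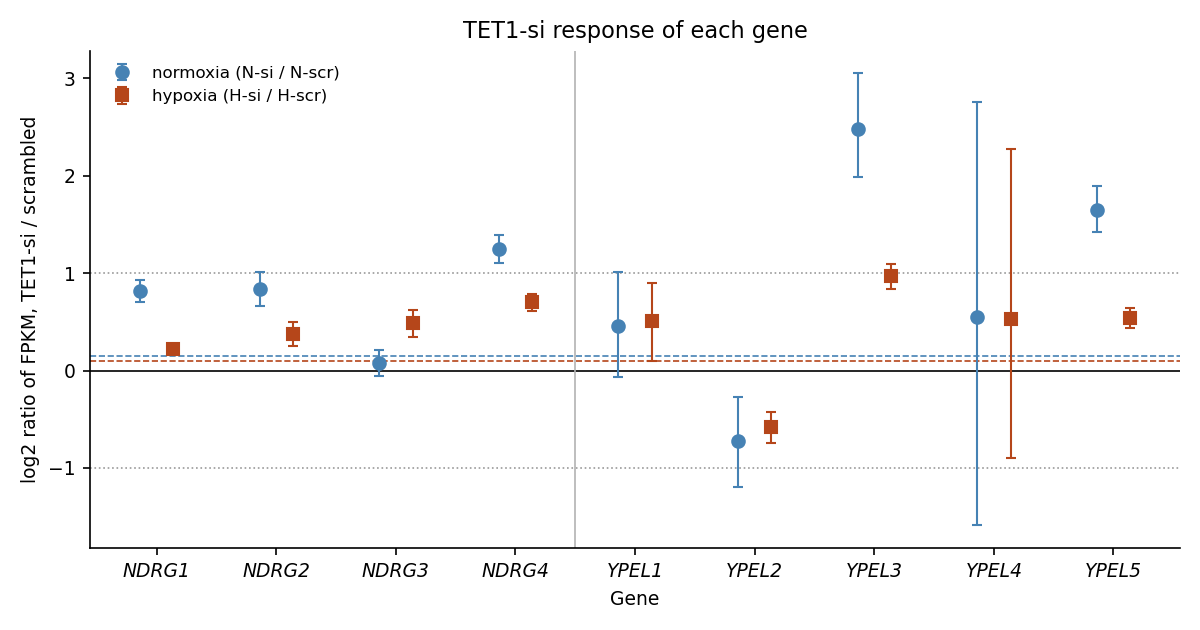
TET1-si response of each member as the plain log2 ratio of TET1-si to scrambled FPKM, under normoxia and under hypoxia, with 95% counting intervals. YPEL3, YPEL5 and NDRG4 lie above the dotted 2-fold line under normoxia, YPEL2 lies below 0 in both oxygen states, and the intervals of YPEL4 span 0.

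On the log2 scale the hypoxia response was smaller in TET1-si than in scrambled cells for 5 of the 9 members, beside 55.4% of all genes and 54.3% of the 1013. The difference of the hypoxia responses, TET1-si less scrambled, was -1.42 for YPEL3 and -1.09 for YPEL5. On the same log2(FPKM + 0.1) scale it was -0.59 for NDRG1, -0.54 for NDRG4 and -0.45 for NDRG2, and 0.41 for NDRG3. For these 6 members the counting interval of the difference excluded 0, while for YPEL1, YPEL2 and YPEL4 it included 0. The difference shares N-scr and H-scr with the hypoxia response that chose the families. A member chosen for a large response in scrambled cells starts low in it, and nothing is read from the intervals of NDRG1 and YPEL3. For YPEL2 the difference of the plain log2 responses was 0.14 (interval -0.33 to 0.61).

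In FPKM rather than in ratio, 7 members gained more in hypoxia in TET1-si than in scrambled cells, as did 50.5% of all genes and 70.1% of the 1013. The 7 include YPEL1 and YPEL4, which lay below the minimum. NDRG1 was 481 FPKM higher in hypoxia in scrambled cells, whereas it was 551 FPKM higher in TET1-si cells. YPEL3 was 21.6 FPKM higher in hypoxia in scrambled and 38.1 higher in TET1-si cells, YPEL5 23.2 and 26.3, and NDRG4 15.9 and 20.1. These 4 members thus had a smaller response in TET1-si cells on the log2 scale and a larger one in FPKM, and each was higher in N-si than in N-scr. NDRG2 was smaller in TET1-si cells on both scales, with gains of 7.03 and 5.81 FPKM, and YPEL2 gained 5.99 FPKM in scrambled and 4.06 in TET1-si cells. None of the 9 members met the study's criteria for hypoxia-responsive genes lowered by the knockdown, which require more than 2 times as much in H-scr as in H-si, more in H-scr than in N-scr, and no more in N-si than in N-scr. Those criteria were met by 3.84% of all genes above the minimum.

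The makeup of each family followed these levels. The 4 NDRG genes summed to 43.3 FPKM in N-scr against 72.0 in N-si, and 546 in H-scr against 651 in H-si. NDRG1 held 36.8%, 39.0%, 91.1% and 88.9% of those sums, and NDRG3 went from 29.9% and 19.0% in normoxia to 2.11% and 2.48% in hypoxia. Without NDRG1 the NDRG sum was 27.4 FPKM in N-scr against 43.9 in N-si, and 48.8 in H-scr against 72.2 in H-si. The 5 YPEL genes summed to 7.06, 21.5, 58.3 and 90.7 FPKM in the same order. YPEL5 was the most abundant YPEL gene in N-scr, N-si and H-scr, with 61.7%, 63.4% and 47.2% of the sum, and YPEL3 in H-si, with 49.1% beside 44.1% for YPEL5. YPEL2 held 12.7% in N-scr and 11.8% in H-scr, but 2.53% in N-si and 5.07% in H-si.

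**Figure D4:**
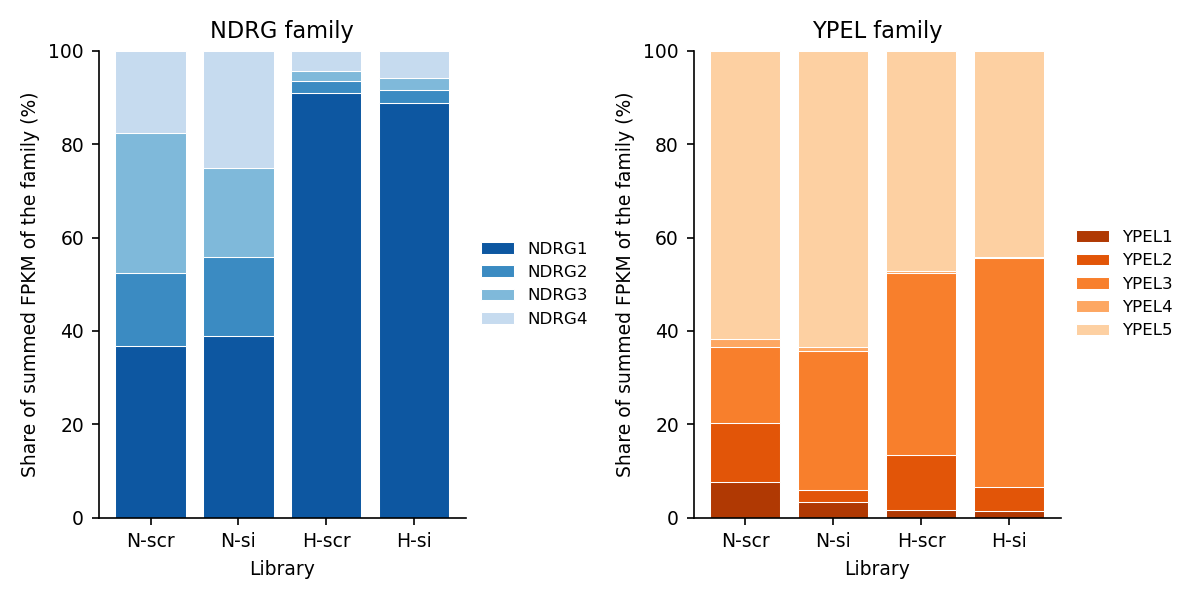
Share of the summed FPKM of each family held by each member, in percent, with 1 stacked bar per library for the NDRG family and for the YPEL family. NDRG1 goes from 36.8% and 39.0% in normoxia to 91.1% and 88.9% in hypoxia, and YPEL3 from 16.3% in N-scr to 49.1% in H-si.

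Members of one family could in principle share reads. Among coding sequences of the canonical transcripts, YPEL1 and YPEL2 were the closest pair, with 80.7% identity, while YPEL5 had 38.1% to 51.6% identity with the other YPEL genes and the NDRG pairs had 58.2% to 64.4%. The longest exact run shared by any pair was 26 bp, between NDRG2 and NDRG4, beside a read length of 100 bp.

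The chromosomal neighbours of each member, the 5 nearest protein-coding genes on each side above the minimum, were set beside it because earlier results of these data showed TET1-si responses that run along chromosomes. The TET1-si response of 8 of the 9 members, all but YPEL2, was above the median of its 10 neighbours in both oxygen states. This held for 35.9% of 11907 protein-coding genes and for 59.9% of the 706 among them that passed 2-fold in hypoxia in both states. Of the members, only NDRG1, NDRG4, YPEL2, YPEL3 and YPEL5 are among the 706, and YPEL1 and YPEL4 are not among the 11907. NDRG3, YPEL1 and YPEL4 are again among the 8. With 10 genes on each side the member was above the median for 8 members under hypoxia and for 7 under normoxia. Under normoxia YPEL3, at 2.38, was above all 10 of its neighbours, which had a median of 0.13 and ran from -0.57 to 1.26. The TET1-si responses of YPEL3 and NDRG1 share N-scr or H-scr with the choice of the families, so their places among neighbours are descriptions only. The nearest genes on either side of YPEL3 were TBX6 and GDPD3, with responses of 1.26 and 1.01 under normoxia and 1.26 and 1.64 under hypoxia. NDRG4, at 1.24 under normoxia, was likewise above all 10 neighbours (median 0.12, highest 0.75), and its nearest genes GINS3 and SETD6 were at 0.45 and -0.14. Under hypoxia NDRG3, at 0.48, was above all 10 of its neighbours, which had a median of -0.51, and with 10 genes on each side it was above 16 of 20, with a median of 0.03. YPEL5, at 1.63 under normoxia, lay beside LBH, which had a response of 1.64 and levels of 6.06, 19.1, 23.1 and 32.6 FPKM. Around YPEL2 the neighbours were also low after TET1-si, with medians of -0.47 under hypoxia and -0.30 under normoxia, but with 10 genes on each side these medians were -0.05 and -0.10, and 9 of the 20 neighbours were above 0 in each oxygen state. NDRG1, at 0.81 under normoxia, was above 9 of 10 neighbours, whose median was 0.25. Under hypoxia, at 0.22, it was above 6 of 10, with a median of 0.06. With 10 genes on each side it was above 10 of 20 under hypoxia, with a median of 0.18.

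**Figure D5:**
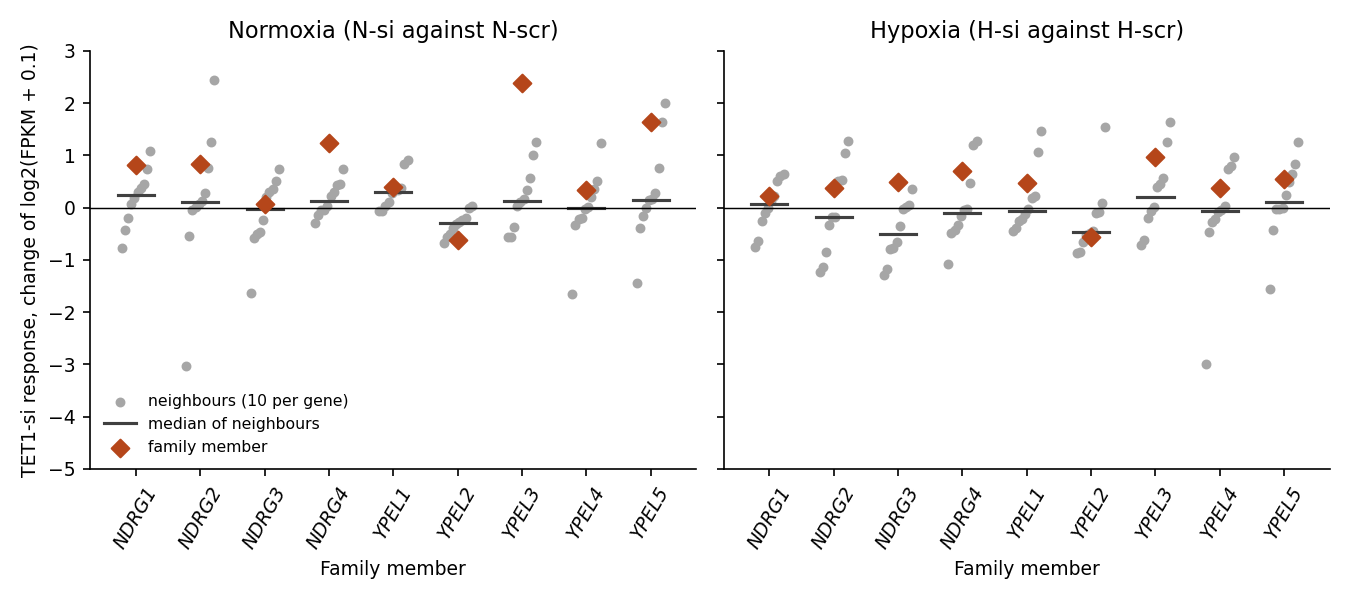
TET1-si response on the log2(FPKM + 0.1) scale of each member (coloured) and of its 10 nearest protein-coding neighbours (grey), under normoxia and under hypoxia. YPEL3 and NDRG4 under normoxia and NDRG3 under hypoxia lie above all of their neighbours, and YPEL2 lies low among neighbours that are mostly below 0.

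Genes whose 4 levels ran most like those of a member were ranked among 11900 protein-coding genes by the root mean square (RMS) difference of log2(FPKM + 0.1) over the 4 libraries, after each gene's own mean was taken out. With 4 libraries this is a description of likeness only. Nearest to NDRG1 were COX6B2 (RMS 0.33), the HIF prolyl hydroxylase gene EGLN3 (0.40) and the transcription factor gene MAF (0.61), and no gene came within 0.25. EGLN3 measured 2.62 FPKM in N-scr against 5.68 in N-si, and 62.9 in H-scr against 57.9 in H-si. The YPEL3 pattern had 1 gene within 0.25, FBXO2 (0.16), which measured 0.226, 1.90, 5.01 and 11.2 FPKM and encodes an F-box protein that binds glycoproteins. CLIC3 (0.30) and IZUMO4 (0.45) came next. YPEL2 had 2 genes within 0.25, the signalling ligand gene WNT4 (0.23) and PPP1R3G (0.24), followed by S100A4 (0.27). YPEL5 had 29 such genes, led by FAM214B (0.05), RUNDC3A (0.11) and PNPLA3 (0.12). The patterns of NDRG4, NDRG2 and NDRG3 were shared more widely, with 200, 791 and 2801 genes within 0.25. Their nearest genes were VASH1, FANK1 and PC for NDRG4, BACH1, RNF213 and CORO2A for NDRG2, and RNF8, SS18L1 and CRAMP1L for NDRG3.

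Of 13 kinases and transcriptional regulators of NDRG1, 11 were above the minimum. None was at least 2-fold changed in hypoxia in scrambled cells, with a median of 0.15, and 1 was higher and none lower in TET1-si cells, with a median of -0.04. After TET1-si 2 were higher and none lower under normoxia, and 1 was higher and 1 lower under hypoxia. EPAS1, which encodes HIF-2 alpha, measured 13.3 FPKM in N-scr against 26.8 in N-si, and 21.7 in H-scr against 62.4 in H-si. Its TET1-si response was 1.01 under normoxia and 1.52 under hypoxia, the reverse order of that of NDRG1. SGK1, the kinase that phosphorylates NDRG1, was lower in both TET1-si libraries, at 16.8, 9.37, 25.7 and 8.09 FPKM. ARNT, the partner of the HIF alpha subunits, measured 15.1, 22.2, 22.8 and 31.6 FPKM.

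Of 10 subunits of the CTLH ligase, with which YPEL5 associates, 1 was at least 2-fold lower and none higher in hypoxia in scrambled cells, and none was changed in TET1-si cells. That subunit was GID4, the substrate receptor, at 7.75 FPKM in N-scr against 7.46 in N-si, and 3.20 in H-scr against 8.74 in H-si. H-scr was its low library, and its TET1-si response of 1.42 under hypoxia was the only one of the list past 2-fold in either oxygen state. The median TET1-si response of the 10 subunits was 0.47 under normoxia, with 8 above 0, and 0.21 under hypoxia, with 7 above 0. Over all genes these medians were 0.15 and 0.10. RMND5B had a hypoxia response of 0.40 in scrambled cells and WDR26 one of 0.38. Of the 3 other genes with a yippee fold, MIS18A and OIP5 were lower in hypoxia in both knockdown states and CRBN was higher in both, short of 2-fold. MIS18A, which acts in centromere maintenance, had hypoxia responses of -1.17 in scrambled and -1.74 in TET1-si cells, OIP5 of -0.37 and -1.90, and CRBN, a ubiquitin ligase substrate receptor, of 0.55 and 0.46. CRBN measured 21.8, 28.8, 31.9 and 39.6 FPKM, in the same order of libraries as most members.

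Among 18 established hypoxia targets, 12 were at least 2-fold higher and none lower in hypoxia in scrambled cells (median 1.59), and 10 higher and none lower in TET1-si cells (median 1.29). After TET1-si, 4 were higher and 3 lower under normoxia (median 0.10), and none was higher and 2 lower under hypoxia (median -0.21). Of the 18 targets, 7 were above 0 after TET1-si under hypoxia, beside 56.5% of all genes. Of the 9 members 8 were, YPEL4 among them with an interval that included 0. CA9, the tumour carbonic anhydrase, was at 0.180 FPKM in N-scr, listed at 0 in N-si, and at 7.82 in H-scr and 0.506 in H-si. H-si was far below H-scr for CA9, with a TET1-si response of -3.71, beside 0.22 for NDRG1. BNIP3, a mitophagy receptor, measured 11.5, 25.0, 69.2 and 70.1 FPKM.

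Of 13 p53 targets, 4 were at least 2-fold higher and none lower in hypoxia in scrambled cells (median 0.59), and 3 higher and none lower in TET1-si cells (median 0.49). After TET1-si, 2 were higher and 1 lower under normoxia, and 1 was higher and 1 lower under hypoxia. TP53INP1, a stress-induced regulator of autophagy, measured 0.288 FPKM in N-scr against 0.338 in N-si, and 3.96 in H-scr against 5.36 in H-si. BBC3, a proapoptotic BCL2 family gene, was at 0.848, 1.29, 4.90 and 3.41 FPKM, and CDKN1A, the cyclin-dependent kinase inhibitor p21, at 8.22, 9.35, 25.6 and 18.9 FPKM. The TET1-si response under normoxia was 0.18 for TP53INP1, 0.55 for BBC3 and 0.18 for CDKN1A, beside 2.38 for YPEL3. That value of YPEL3 shares N-scr with the hypoxia response that chose it.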

How the data were processed

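RNA-Seq was measured in 4 libraries, 1 per group. The deposited FPKM were made by the authors with TopHat and Cufflinks on hg19 (as named in the submitters' processing notes), from reads of 100 bp. Tool versions and filters are not given in the sources used here, and strand was not stated. No count model was applied to FPKM. With 1 library per group no p-value could be given. Members and gene lists were chosen with earlier results of these data known. Changes were taken on log2(FPKM + 0.1) for genes with a mean of at least 1 FPKM, at 2-fold. Of the gene IDs, 111 stand on several rows (232 rows), and these rows were left out.

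The depth of each library was searched as the value that made low FPKM of 6352 one-exon genes whole reads, and 97.0% to 97.4% came out whole within 0.05. Approximate reads are FPKM times depth times the canonical transcript length (GENCODE v44lift37) less 214 bp. Intervals of 95% are exact (Clopper-Pearson) for a log2 ratio and Wald for a difference of responses. The search was tested on simulated data. Start positions were raised by 1, to count from 1. Promoters came from RefSeq (GRCh38.p14), a build other than that of the table, and no coordinate was converted. A protein table was not used here, so identity was computed on coding sequences. Named beside the members were, from each list, the 3 genes above the minimum with the largest absolute hypoxia response in scrambled cells, the nearest expressed neighbours, the 3 genes most alike in pattern, and TET1. LBH, TBX6, GDPD3, GINS3 and SETD6 were picked for the text from the nearest neighbours, and PPIL2, CLP1, YPEL3-DT, ENSG00000266002 and RNASE7 for their overlap, after their values were seen. Python 3.11.15, numpy 2.4.6, pandas 2.3.3, scipy 1.17.1, Biopython 1.88 and matplotlib 3.10.9 were used. The alternatives were other pseudocounts, scalings, minima, transcript lengths and numbers of neighbours.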

Additional observations from a re-analysis of the deposited data

Results flagged for a closer look

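The hypoxia response of NDRG3 had opposite signs in the 2 knockdown states, at -0.17 with the scrambled control and 0.24 with the knockdown (log2(FPKM + 0.1) scale). With 1 library per group the difference was not tested, and 10.3% of all genes showed the same pair of signs. Other scalings and pseudocounts kept both signs. The scrambled response was nearer to 0 after rescaling to TPM, at -0.05, and with upper-quartile scaling, at -0.13. With median-of-ratios scaling it was -0.22.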

How the results depend on the processing

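No paired analysis was possible because each group had 1 library. Each recomputed value was set against the distance from the middle of its counting interval to an end. Of 180 recomputed changes of members, 159 moved by no more than that distance and 21 by more. None of those past 2-fold changed sign. Of 45 recomputed differences of hypoxia responses, 1 moved by more, that of YPEL3, to -0.85 with a pseudocount of 1. After rescaling to TPM, 1 member (YPEL3) was at least 2-fold changed after TET1-si under hypoxia, where none was in the values as deposited. Over all genes, median-of-ratios scaling moved the share of higher among changed genes from 59.0% to 49.2% under hypoxia after TET1-si, with 1478 higher and 1524 lower. Under normoxia the share was 56.0% in place of 68.6%, from 1419 higher and 1115 lower genes. The median TET1-si response of all genes became -0.01 and 0.00 with that scaling. For hypoxia in TET1-si cells, TPM gave 69.1% in place of 59.1%, and a minimum of 5 FPKM gave 44.8%. Without a minimum, hypoxia came with 4517 higher and 1654 lower genes in the scrambled state, 4803 and 2333 in TET1-si cells, and 4226 and 3083 after TET1-si under hypoxia and 3699 and 2299 under normoxia. The cause of these shifts was not tested. Merged exon lengths in place of canonical ones raised approximate reads, for NDRG1 in H-scr from 34509 to 144713, so the intervals depend on the isoform assumed. Depth limited YPEL4, and YPEL1 in part, as given with their reads.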
